A study of Mus musculus with 18 samples.

Results

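The comparison described here asked whether deletion of Tyrobp changed the transcripts of striatal microglia by a different amount in Q175 mice than in mice without the Q175 allele. It was measured for every gene as a difference of differences on the log2 scale, (Q175;Tyrobp-KO minus Q175) minus (Tyrobp-KO minus WT), called the interaction from here on. An interaction of 0 means that the 2 alleles added up on the log2 scale, and a value above 0 means that the gene was higher in mice carrying both alleles than the single alleles add up to. All 18 labelled samples entered, and 18613 of the 55536 annotated genes reached a CPM of 1 (read counts scaled to a common library size) in at least 1 sample and were tested. Microglia were taken from the striatum with magnetic beads against the surface protein CD11b, and their RNA was sequenced in bulk. There were 5 WT samples (1 female, 4 male), 3 Tyrobp-KO samples (2 female, 1 male), 5 Q175 samples (4 female, 1 male) and 5 Q175;Tyrobp-KO samples (2 female, 3 male), all on the C57BL/6 strain. Q175 mice were heterozygous for a knock-in allele carrying a mutant human exon 1 of the huntingtin gene with an expanded CAG repeat, and Tyrobp-KO mice were homozygous for a null allele. Both alleles were present in every cell of the animal, so neither change was limited to microglia. The study's text calls the mice adult, and the labels give no age. The labels do not say that each sample was a separate animal, so the p-values measure the spread between these samples.

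TYROBP, also called DAP12, is a small membrane adaptor of myeloid cells that has no ligand of its own and pairs with receptors such as TREM2. When a receptor is engaged, Src-family kinases phosphorylate the activation motif (ITAM) in its tail, the kinase SYK docks there, and signals pass to lipid, calcium and cytoskeletal pathways. In several models of neurodegeneration this route is needed for microglia to take on the disease-associated state, in which Clec7a, Spp1, Cst7, Lpl and related genes are switched on. Huntington's disease is caused by the expanded CAG repeat of huntingtin and affects the medium spiny neurons of the striatum first, and the Q175 allele is used as a mouse model of it.

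Tyrobp itself (chr7:30413760-30417585 in GRCm38) fell by a like amount in both backgrounds. It stood at 452, 395, 475, 239 and 196 CPM in the WT samples and at 21.3, 19.6 and 17.5 CPM in the Tyrobp-KO samples. In the Q175 samples it stood at 267, 270.2, 213, 296 and 368 CPM, and in the Q175;Tyrobp-KO samples at 9.90, 14.3, 12.8, 14.6 and 13.2 CPM. Every sample labelled as carrying the null allele lay far below every sample labelled as not carrying it. The log2 change was -4.17 in WT and -4.45 in Q175 mice, and the interaction was -0.27 (95% interval -0.98 to 0.43). Htt, the mouse huntingtin gene, had an interaction of -0.06 (95% interval -0.59 to 0.48).

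The samples were deep, with 11260410 to 29771983 assigned reads each. All 20 microglial markers were detected in every sample and 18 of them were above 100 CPM everywhere, with a geometric mean level of 861 CPM in WT, 1055 in Tyrobp-KO, 811 in Q175 and 942 in Q175;Tyrobp-KO samples. Transcripts of other striatal cells were also present, and their levels followed the pattern of the interaction. The geometric mean of 16 astrocyte markers was 25.1, 50.9, 58.3 and 46.4 CPM in the same 4 groups, an interaction of -1.14, and that of 16 medium spiny neuron markers was 17.99, 21.9, 29.1 and 15.3 CPM, an interaction of -1.01. In bulk RNA, fewer cells of a type and less RNA per cell cannot be told apart. In Tyrobp-KO replicate 20 the astrocyte level was 99.0 CPM against 18.3 and 35.2 CPM in the other Tyrobp-KO samples, and in Q175 replicate 14 it was 112 CPM against 40.9 to 55.3 CPM in the other Q175 samples. The sex label matched the sex-linked transcripts in every sample. Xist stood between 3260 and 5590 CPM in the 9 females and at or below 109 CPM in the 9 males. The share of females, 20% in WT, 66.7% in Tyrobp-KO, 80% in Q175 and 40% in Q175;Tyrobp-KO samples, gives sex itself an interaction of -86.7 percentage points. The results that moved most with these samples or with sex are given with and without them. The fit without Tyrobp-KO replicate 20 and Q175 replicate 14 was chosen after the data were seen. Both groups enter the interaction with a minus sign, so leaving out their highest samples for a list raises its interaction by construction.

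No gene passed the threshold for the interaction. With edgeR's quasi-likelihood test at a false discovery rate (FDR) of 0.1, 0 of 18613 genes (0%) were called, and the smallest adjusted p was 0.716. At an unadjusted p under 0.05 there were 1118 genes, or 6.01% of those tested, 556 with an interaction above 0 and 562 below 0. DESeq2 called 2 genes on the same counts and had 1380 at an unadjusted p under 0.05. The 2 were Tmc3, a member of the transmembrane channel-like family, with an interaction of 4.01 and a DESeq2 adjusted p of 0.00143, and Ccbe1 with -6.73 and a DESeq2 adjusted p of 0.0347. When sex was added, DESeq2 called Tmc3 and the noncoding Gm28182, and no longer Ccbe1. Over all genes the median interaction was 0.04.

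The design was less precise for the interaction than for either allele alone. The median standard error over all genes was 0.41 for the interaction, 0.31 for Tyrobp deletion in WT mice, 0.27 for Tyrobp deletion in Q175 mice and 0.21 for their average. For genes at 10 to 100 CPM the median standard error of the interaction was 0.29 and the median 95% interval reached 0.61 to each side. For 6936 genes (37.3% of those tested) the whole 95% interval lay within a 2-fold difference either way. This share was 60.5% at 10 to 100 CPM, 57.8% above 100 CPM and 14.8% at 1 to 10 CPM. For most genes below 10 CPM the 95% interval reached beyond a 2-fold difference. These intervals do not say what size of interaction could be called at FDR 0.1, and edgeR did not call Tmc3 at 4.04.

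Genes called for Tyrobp deletion in one background moved the same way in the other. The 2 changes share no sample, but the spread used to call the genes was estimated from all 18 samples. In WT mice alone 8 genes were called (0.043% of those tested) and in Q175 mice alone 14 genes (0.0752%). All 8 had the same sign at an unadjusted p under 0.05 in Q175 mice, where 5.07% of all genes reached that p in either direction. Of the 14, all had the same sign in WT mice and 11 an unadjusted p under 0.05 there, against 8.8% of all genes. Tyrobp, the deleted gene itself, was in both sets. Without it, all 7 genes called in WT mice had the same sign at that p in Q175 mice. The other 13 genes called in Q175 mice all had the same sign in WT mice, 10 of them at that p. How many genes each background gave depended on the setting. A fit with sex as a term called 14 in WT and 2 in Q175 mice, with a term for the level of markers of astrocytes, neurons and oligodendrocytes (the marker score) 23 and 4, and with DESeq2 115 and 29. Leaving out 1 sample gave 1 to 11 in WT and 2 to 17 in Q175 mice, with the lowest count in WT mice without Tyrobp-KO replicate 15.

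The average of the 2 Tyrobp effects was called at FDR 0.1 for 37 genes (0.199% of those tested), 28 lower and 9 higher without Tyrobp. Group sizes alone give this average a correlation of only -0.143 with the interaction. A large average leaves little room for opposite signs, and that all 37 had the same sign in both backgrounds is a product of the choice. Of the 37, 22 had an interaction above 0 and 15 below 0, and the median was 0.17 beside 0.04 over all genes. That median lay between 0.02 and 0.36 with 1 sample left out, and was 0.40 with sex as a term. It was 0.02 in females alone, with 1 WT sample, and 0.74 in males alone, with 1 Tyrobp-KO and 1 Q175 sample. The median size of the interaction was 0.48 and that of the average Tyrobp effect was 2.05.

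**Figure D1:**
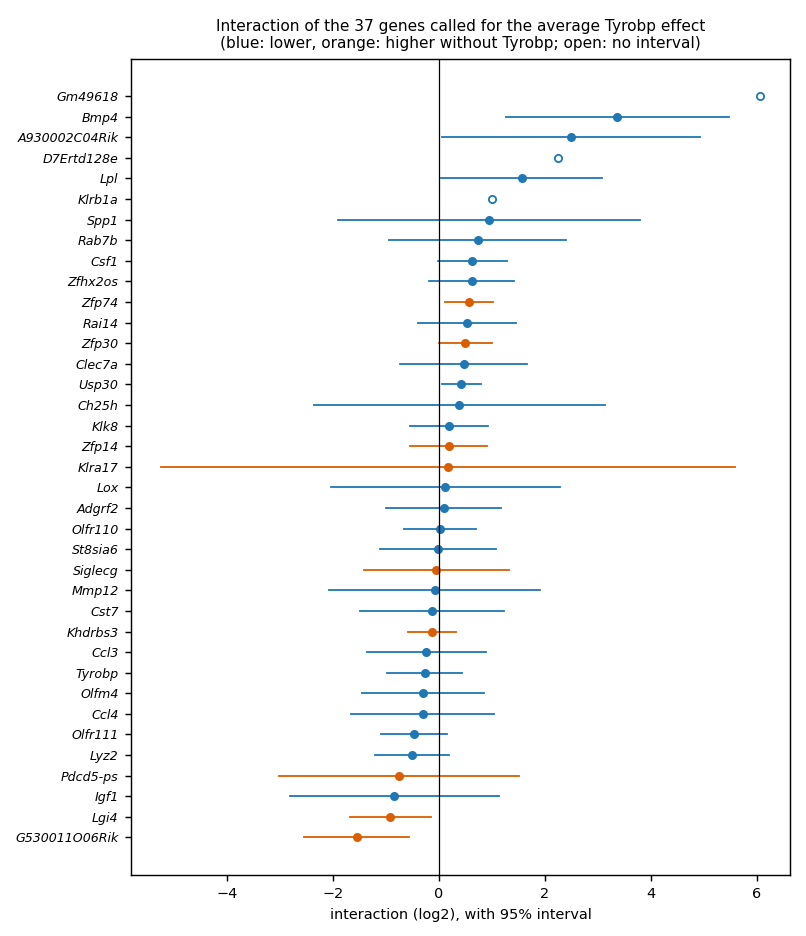
Interaction in log2 (x axis) for each of the 37 genes called at FDR 0.1 for the average Tyrobp effect (y axis), with 95% intervals; blue genes were lower and orange genes higher without Tyrobp, and open symbols are genes with no interval. Most intervals cross the line at 0, with 22 estimates above it and 15 below it.

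St8sia6, a sialyltransferase that adds sialic acids to glycans, was the clearest gene after Tyrobp. Its level was 21.8, 20.1, 12.7, 32.0 and 22.0 CPM in WT and 2.61, 2.79 and 3.66 CPM in Tyrobp-KO samples. In Q175 samples it was 23.1, 10.9, 11.2, 23.8 and 44.6 CPM, and in Q175;Tyrobp-KO samples 3.07, 3.07, 2.73, 2.15 and 4.503 CPM. Samples with and without Tyrobp did not overlap in either background. The log2 change was -2.85 in WT (adjusted p = 0.0258, edgeR) and -2.87 in Q175 mice (adjusted p = 0.00193, edgeR), and the interaction was -0.02 (95% interval -1.12 to 1.07). Klk8, a secreted serine protease, gave -1.63 and -1.44 with an interaction of 0.19 (95% interval -0.54 to 0.92), an interval within 2-fold either way.

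Genes of the disease-associated state were among the 28 lower genes, and their intervals for the interaction were wide. Clec7a, the pattern receptor dectin-1, stood at 113, 104, 62.6, 65.6 and 70.2 CPM in WT and at 15.1, 11.2 and 15.8 CPM in Tyrobp-KO samples. In Q175 samples it stood at 37.2, 48.6, 24.6, 87.6 and 117 CPM, and in Q175;Tyrobp-KO samples at 10.2, 26.0, 18.1, 10.2 and 8.75 CPM. One Q175;Tyrobp-KO sample, replicate 11 at 26.0 CPM, lay above the lowest Q175 sample, replicate 9 at 24.6 CPM, and in WT mice the groups did not overlap. Clec7a changed by -2.57 in WT and -2.10 in Q175 mice, and the interaction was 0.46 (95% interval -0.73 to 1.66).

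Spp1, which encodes the secreted phosphoprotein osteopontin, had the largest fall of the 4. It stood at 88.1, 63.2, 18.04, 59.2 and 67.0 CPM in WT and at 0.638, 0.619 and 0.475 CPM in Tyrobp-KO samples. In Q175 samples it stood at 15.3, 18.03, 6.33, 86.5 and 155 CPM, and in Q175;Tyrobp-KO samples at 3.89, 0.821, 0.434, 0.358 and 0.212 CPM. The 5 Q175 samples spanned a far wider range than the WT samples, with replicates 14 and 17 high, and still lay above every Q175;Tyrobp-KO sample. The log2 changes were -6.65 and -5.71 and the interaction was 0.94, with a 95% interval from -1.90 to 3.79. It was -0.33 without Q175;Tyrobp-KO replicate 5, 1.78 without Q175 replicate 17 and 2.23 with sex as a term, so its sign rested on 1 sample. Cst7, an inhibitor of lysosomal cysteine proteases, fell by 2.40 on the log2 scale in Q175 mice (adjusted p = 0.0695, edgeR). Its change in WT mice was -2.27 (adjusted p = 0.296, edgeR), and its interaction was -0.13 (95% interval -1.48 to 1.22). The chemokine gene Ccl3 had an interaction of -0.24, the cholesterol 25-hydroxylase gene Ch25h 0.38 and the growth factor gene Igf1 -0.85, each with a 95% interval that holds 0. None of these signs was stable. Ccl3 had 0.24 and Igf1 0.53 with sex as a term, and without Q175;Tyrobp-KO replicate 16 Ch25h had -0.59.

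Lpl was the one gene of the disease-associated list with an interaction above 0 at an unadjusted p under 0.05. It encodes lipoprotein lipase, which frees fatty acids from lipoproteins. Its level was 57.4, 61.1, 16.6, 137 and 143 CPM in WT and 8.58, 7.83 and 6.04 CPM in Tyrobp-KO samples. In Q175 samples it was 39.7, 17.6, 22.9, 46.6 and 98.6 CPM, and in Q175;Tyrobp-KO samples 12.4, 13.6, 15.2, 9.31 and 9.60 CPM. The groups with and without Tyrobp did not overlap in either background, and every Q175;Tyrobp-KO sample lay above every Tyrobp-KO sample. Lpl changed by -3.47 in WT and by -1.91 in Q175 mice, an interaction of 1.56 (95% interval 0.04 to 3.07) with an unadjusted p of 0.0481 and an adjusted p of 0.716 (edgeR). The estimate stayed above 0 in 33 of 33 alternative settings, between 1.21 and 2.25, and was 1.91 with sex as a term, and none of them called it.

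**Figure D2:**
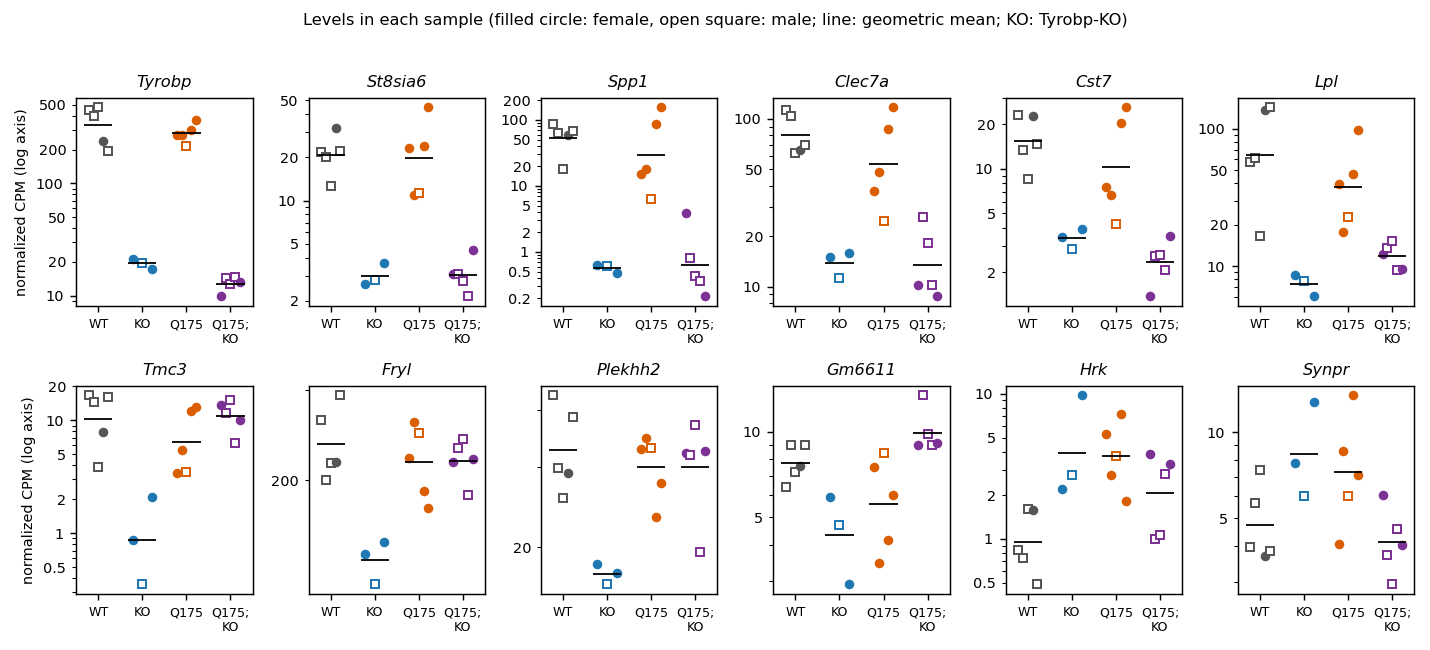
Normalized CPM on a log axis (y) in each of the 18 samples by group (x) for 12 genes; filled circles are females, open squares are males and lines are geometric means. The upper genes, Tyrobp to Lpl, are low without Tyrobp in both backgrounds, and Tmc3, Fryl and Plekhh2 are low in the 3 Tyrobp-KO samples and not in the Q175;Tyrobp-KO samples.

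Of the 37 genes, 9 (24.3%) had an interaction at an unadjusted p under 0.05, where 6.01% of all genes did, and the edgeR adjusted p of each of them missed the threshold. They were named after their values were seen. Lgi4, which encodes a secreted protein of the leucine-rich glioma-inactivated family, was higher without Tyrobp by 1.88 in WT (adjusted p = 0.0161, edgeR) and by 0.96 in Q175 mice (adjusted p = 0.648, edgeR). It stood at 12.3, 12.9, 6.35, 19.98 and 14.1 CPM in WT, 49.4, 54.6 and 40.1 CPM in Tyrobp-KO, 22.1, 28.5, 24.7, 30.7 and 16.1 CPM in Q175, and 48.4, 37.4, 36.9, 58.6 and 55.8 CPM in Q175;Tyrobp-KO samples. Its 2 groups without Tyrobp lay at the same level and the 2 groups with Tyrobp differed, which gave an interaction of -0.92 (95% interval -1.69 to -0.15). The interaction of Lgi4 was -0.77 with sex as a term. It was -0.11 in females alone, with 1 WT sample, and -1.48 in males alone, with 1 Tyrobp-KO and 1 Q175 sample. Bmp4, which encodes a bone morphogenetic protein, had an interaction of 3.36 (95% interval 1.26 to 5.47). It was at 0, 0.0884 and 0.136 CPM in Tyrobp-KO samples and between 0.239 and 2.07 CPM in the other groups, so this value rests on very few reads. Zfp30 (0.50) and Zfp74 (0.56), zinc finger genes near Tyrobp, and Usp30 (0.42), a mitochondrial deubiquitinase, had small interactions. The other 4 were the annotated transcripts G530011O06Rik on chromosome X (-1.55), A930002C04Rik (2.49) and Gm49618 (6.06), and Lpl. Gm49618 had no read in the 3 Tyrobp-KO samples, and its fitted value is no bound.

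Most of the called genes that were higher without Tyrobp lay close to it on chromosome 7. Of the 37 genes, 8 lay within 15 Mb of Tyrobp, where 410 of the tested genes lie (2.20%). These 8 held 5 of the 9 higher genes: Lgi4, Siglecg, Zfp14, Zfp30 and Zfp74. They also held 3 lower genes, Tyrobp itself, Klk8 and D7Ertd128e. Siglecg, an inhibitory receptor for sialic acids, changed by 2.01 in WT and 1.96 in Q175 mice, with an interaction of -0.05 (95% interval -1.42 to 1.32). Over the 410 genes the median interaction was 0.05 and 25 (6.1%) had an unadjusted p under 0.05, which is close to the 6.01% of all genes. Whether sequence linked to the null allele has a part in these changes was not tested.

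Across all genes the 2 Tyrobp effects were only weakly related, and single samples decided how weakly. Over the 18613 genes Pearson's r between the effect in WT and the effect in Q175 mice was 0.128 and 48.4% had the same sign. Genes are not independent replicates, and no p is given. Of 1097 genes lower at an unadjusted p under 0.05 in WT mice, 75% were lower in Q175 mice too, while of 541 genes higher in WT mice 27% were higher in Q175 mice. Without Tyrobp-KO replicate 20, r was 0.462, and 92.1% of 1779 lower genes and 78.1% of 443 higher genes had the same sign in Q175 mice. Without that sample 592 genes were called for the average Tyrobp effect, 62 higher and 530 lower, in place of 37, and still 0 for the interaction, with 560 genes at an unadjusted p under 0.05. Without Q175 replicate 14, r was 0.282, and 79.9% of 1103 lower genes and 72.2% of 627 higher genes had the same sign. With sex as a term r was 0.304, and with the marker score as a term it was 0.337. Leaving out some other samples lowered r, to 0.00793 without WT replicate 6, 0.0283 without Q175 replicate 4, 0.0361 without Q175 replicate 9, -0.0261 without Tyrobp-KO replicate 15 and -0.0278 without Tyrobp-KO replicate 19. It rose to 0.222 without WT replicate 8, 0.181 without WT replicate 7 and 0.145 without Q175 replicate 17. Without Q175;Tyrobp-KO replicates 12 and 11, each left out alone, it rose to 0.18 and 0.164. In females alone, 9 samples, r was -0.207, and in males alone, also 9 samples, it was 0.345.

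**Figure D3:**
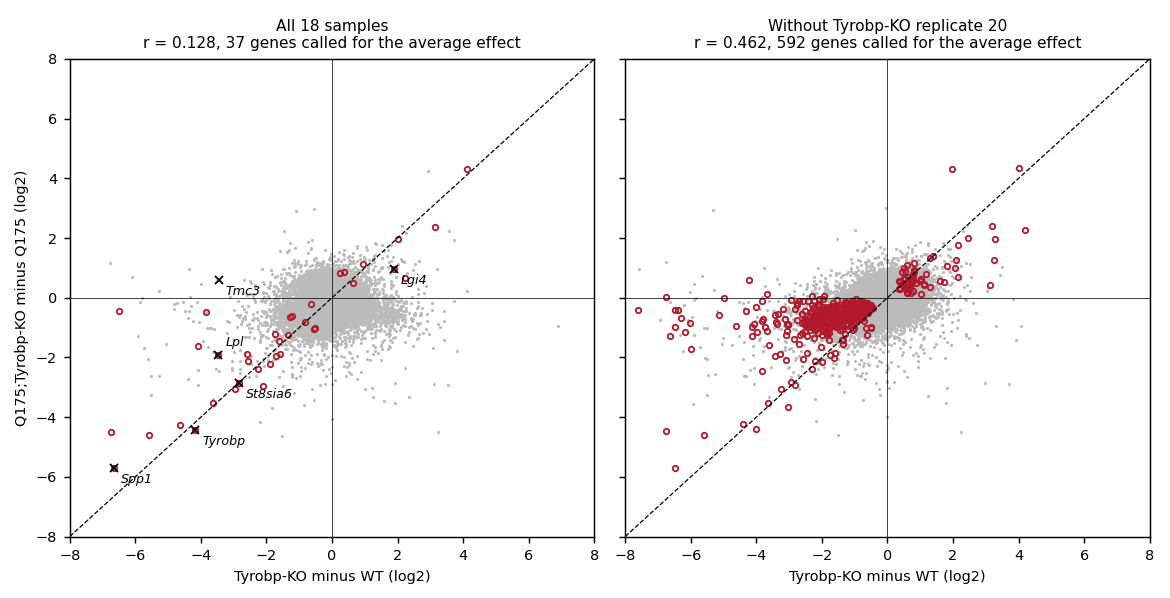
Log2 change with Tyrobp deletion in WT mice (x) and in Q175 mice (y), 1 point per gene, with all 18 samples and without Tyrobp-KO replicate 20; red circles are genes called for the average Tyrobp effect, crosses mark the genes named on the plot and the dashed line is equality. Pearson's r over genes was 0.128 with all samples and 0.462 without that sample.

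The genes that headed the positive side of the interaction had their lowest mean in Tyrobp-KO samples. None passed the threshold in edgeR. The genes given here are the 10 genes on each side with the smallest unadjusted p, off the sex chromosomes and at a mean of at least 1 CPM. Tmc3 (chr7:83584927-83625614 in GRCm38) led them. It stood at 16.7, 14.7, 3.86, 7.96 and 16.1 CPM in WT and at 0.870, 0.354 and 2.10 CPM in Tyrobp-KO samples. In Q175 samples it stood at 3.45, 5.52, 3.46, 12.2 and 13.2 CPM, and in Q175;Tyrobp-KO samples at 13.7, 11.6, 15.04, 6.27 and 10.2 CPM. All 3 Tyrobp-KO samples lay below all 15 others, while the Q175 and Q175;Tyrobp-KO samples overlapped. The log2 change with Tyrobp deletion was -3.46 in WT (adjusted p = 0.109, edgeR) and 0.58 in Q175 mice (adjusted p = 0.682, edgeR). The interaction was 4.04 ± 0.76 (SE), with a 95% interval of 2.46 to 5.63, an unadjusted p of 7.44e-05 and an adjusted p of 0.716 (edgeR). It stayed above 0 in 33 of 33 alternatives, between 2.84 in females alone and 6.79 in males alone, and was 4.604 with sex as a term and 4.84 without Tyrobp-KO replicate 20. DESeq2 called it with and without sex as a term, and no setting of edgeR or limma did.

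Fryl and Plekhh2 showed the same shape at higher expression and with tighter replicates. Fryl, a large protein related to the Furry regulators of cell shape, stood at 262, 200.3, 216, 217 and 292 CPM in WT and at 144, 126 and 152 CPM in Tyrobp-KO samples. Its Q175 samples held 221, 259.6, 247, 191 and 177 CPM and its Q175;Tyrobp-KO samples 217, 231, 240.1, 187 and 220.1 CPM. The Tyrobp-KO samples were again the lowest 3 of the 18. The change was -0.76 in WT and 0.00 in Q175 mice, an interaction of 0.76 (95% interval 0.30 to 1.21, unadjusted p = 0.00266). Plekhh2, whose protein carries pleckstrin homology and FERM domains and binds actin, stood at 18.3, 16.6 and 17.6 CPM in Tyrobp-KO samples and between 19.5 and 43.0 CPM in the other 15, and its interaction was 0.94 (95% interval 0.37 to 1.51). For both genes the estimate stayed above 0 in 33 of 33 alternatives, 0.55 to 0.89 for Fryl and 0.77 to 1.07 for Plekhh2.

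The other 7 genes of this side were smaller or less expressed. Greb1l had an interaction of 2.71 and Cldn14, a claudin of tight junctions, 2.74, with mean levels of 0.823 and 0.334 CPM in Tyrobp-KO samples against 4.90 and 2.38 CPM in WT. Gm49618, one of the 37 genes above, is annotated inside Cldn14, so these 2 may share reads. Ing5, a chromatin reader of histone acetyltransferase complexes, had 0.72, and Riok1, an atypical kinase of ribosome maturation, 0.66. Gm6611, annotated as a processed pseudogene whose reads may come from its parent gene, had 1.55, and the transcripts 9430091E24Rik and Gm44001 had 1.67 and 2.02. All 7 stayed above 0 in every alternative run.

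On the negative side stood genes whose mean was higher in Tyrobp-KO and Q175 samples than in WT and Q175;Tyrobp-KO samples. Hrk, a pro-apoptotic BH3-only gene expressed in neurons, stood at 0.840, 0.738, 1.60, 1.58 and 0.487 CPM in WT and at 2.20, 2.74 and 9.77 CPM in Tyrobp-KO samples. It stood at 5.33, 2.76, 3.70, 7.28 and 1.83 CPM in Q175 and at 3.82, 0.994, 1.07, 2.81 and 3.27 CPM in Q175;Tyrobp-KO samples. Every Tyrobp-KO and Q175 sample lay above every WT sample, the highest of each group being Tyrobp-KO replicate 20 and Q175 replicate 14. The interaction of Hrk was -3.03 (95% interval -4.65 to -1.41, unadjusted p = 0.000901), -2.12 without Tyrobp-KO replicate 20 and -1.85 without both of those samples. Synpr, which encodes the synaptic vesicle protein synaptoporin, had -1.73 (95% interval -2.73 to -0.74) and -1.17 without both samples.

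The other 8 genes on that side were the glutathione transferase gene Gstm6 (-3.02), the mitochondrial tRNA gene mt-Tp (-3.96), the monoamine transporter gene Slc29a4 (-2.89), Asphd1 (-2.56), Mir6236 (-2.31), the noncoding Pantr1 (-2.07), the mitochondrial leucyl-tRNA synthetase gene Lars2 (-1.89) and the kinase gene Sbk1 (-1.32). All 10 kept their direction in the alternatives run, except Mir6236 in males alone, where it was 0.09, but not all kept their size. Without Tyrobp-KO replicate 20 mt-Tp had -1.63 and Pantr1 -1.10, and without both samples -0.63 and -0.69. Without both samples Asphd1, Mir6236 and Sbk1 had -1.41, -1.41 and -1.05, while Gstm6, Slc29a4 and Lars2 had -2.67, -3.32 and -1.78. With the marker score as a term Gstm6, Slc29a4 and Lars2 had -2.22, -3.15 and -1.98. The astrocyte and neuron markers moved the same way as these 10 genes, at interactions of -1.14 and -0.58, and their part in the result was not tested beyond these settings. Reads of Gstm6 and other Gstm genes may be split between near-identical copies.

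The Q175 effects with and without Tyrobp were unrelated over all samples, and this too turned on 1 sample. No gene was called at FDR 0.1 for the Q175 effect in either background by edgeR, where 1214 genes (6.52%) had an unadjusted p under 0.05 with Tyrobp and 954 (5.13%) without. DESeq2 called 0 with Tyrobp and 1 without, or 4 without Tyrobp when sex was a term. Only limma-voom with sample quality weights called more, 0 with and 359 without Tyrobp. Of the 1214 genes, 765 were higher in Q175 than in WT samples, and 38.2% of these were also higher in Q175;Tyrobp-KO than in Tyrobp-KO samples. Pearson's r between the 2 Q175 effects, which share no sample, was -0.0274 over all genes. Without Tyrobp-KO replicate 20, 1119 genes were higher with Tyrobp, 88% of them were higher without Tyrobp too, and r was 0.323. With sex as a term r was 0.0967, and 61.8% of 89 higher genes had the same sign.

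The 17 genes listed here as named for Q175 microglia lay wholly on the negative side. They are GABA and glutamate receptor subunits (Gabrg1, Gabra2, Gabrb1, Grik1), the glutamate transporter Slc1a2, the GABA transaminase Abat, glutathione transferases (Gstm1, Gstm5, Gsta4), synaptic and neuronal genes (Cplx1, Camk2a, Nefl), G protein gamma subunits (Gng7, Gng13), the secreted phospholipase Pla2g5, the membrane glycoprotein gene Pdpn and the cation channel gene Trpc6. Of these, the study's text names Gabrg1, Gabra2, Gabrb1, Gstm1, Gstm5, Gsta4, Pla2g5, Pdpn and Trpc6 (spelled Trcp6). It also names Fbxo2 and Scrg1, which are not in the list. The study's choice was made on these samples, from the comparison of Q175 with WT mice. Group sizes alone give that comparison a correlation of -0.655 with the interaction, so the choice itself pulls the interaction below 0, and the values that follow are a description. All 17 had an interaction below 0, 10 at an unadjusted p under 0.05, where 6.01% of all genes reached that p. The median was -2.24 beside 0.04 over all genes, and 0 were called. The median change with Tyrobp deletion was 1.68 in WT and -0.58 in Q175 mice, and the median change with Q175 was 1.84 with Tyrobp and -0.21 without.

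Gabrg1, a GABA receptor subunit, stood at 3.92, 4.03, 2.97, 3.75 and 6.88 CPM in WT, at 3.02, 6.32 and 36.0 CPM in Tyrobp-KO, at 7.05, 14.8, 6.85, 29.0 and 11.9 CPM in Q175, and at 18.3, 4.02, 3.07, 12.1 and 9.98 CPM in Q175;Tyrobp-KO samples. Tyrobp-KO replicate 20 and Q175 replicate 14 were the highest of their groups, and the other 2 Tyrobp-KO samples lay within the WT range. Its interaction was -2.36 (95% interval -4.24 to -0.48), and that of Gstm5 was -2.52 (95% interval -4.48 to -0.57). Slc1a2, the main glutamate transporter of astrocytes, had -1.96 with a 95% interval from -4.02 to 0.09.

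The level of the whole list, its geometric mean CPM, showed the same samples apart. It was 8.23, 7.15, 9.34, 8.20 and 6.89 CPM in WT and 6.26, 10.8 and 44.1 CPM in Tyrobp-KO samples. It was 21.8, 15.5, 12.2, 57.3 and 14.4 CPM in Q175 and 30.6, 6.64, 6.98, 19.99 and 21.1 CPM in Q175;Tyrobp-KO samples. All 5 Q175 samples lay above all 5 WT samples, and the Q175;Tyrobp-KO samples fell into a low pair, replicates 11 and 12, and 3 samples at the level of Q175 mice. The median interaction of the list was -0.84 without Tyrobp-KO replicate 20, -1.50 without Q175 replicate 14 and -0.11 without both. With sex as a term it was -1.21, and with the marker score as a term -0.22. Leaving out both, the highest samples of their groups, was chosen after seeing the data and raises the median by construction. Without replicate 20, without both samples, with sex or with the score, 0 of the 17 genes were past an unadjusted p of 0.05. Over all genes tested, 139, 140, 59 and 96 were below 0 at that p in those settings, against 562 with all samples and no added term. A count of 0 in a short list is near that background. The 16 astrocyte markers ran in parallel in the same settings, at -1.31, -0.46 without Tyrobp-KO replicate 20 and -0.12 without both, and the 16 medium spiny neuron markers at -1.26, -0.35 and -0.14. Slc1a2 and Nefl of the 17 genes are also among the markers that make the marker score, so that term adjusts the list partly for itself.

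**Figure D4:**
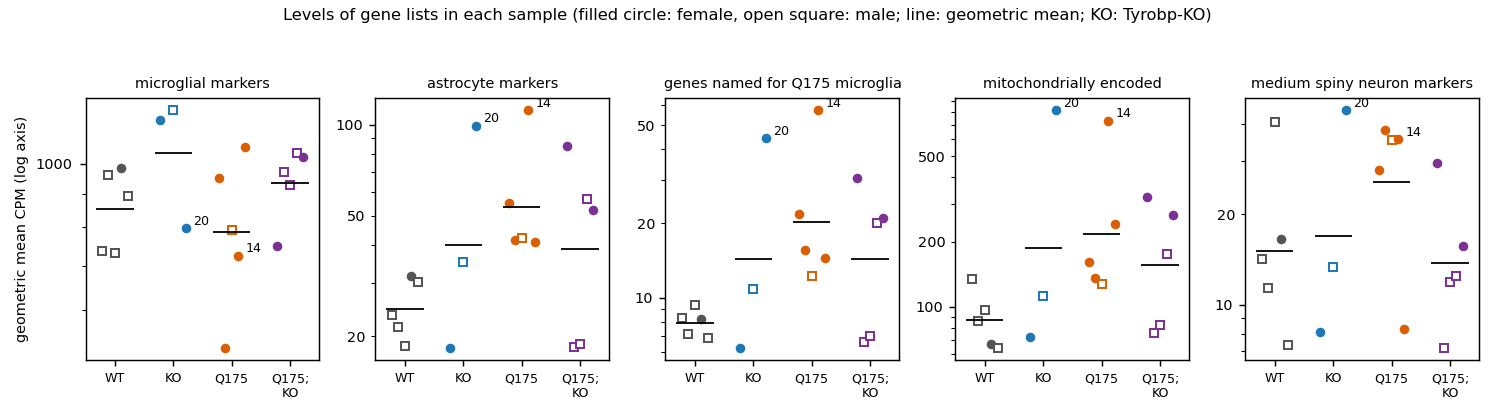
Geometric mean CPM of the genes of 5 lists (y, log axis) in each of the 18 samples by group (x), with Tyrobp-KO replicate 20 and Q175 replicate 14 numbered. Microglial genes are level across the groups, while astrocyte markers, genes named for Q175 microglia and mitochondrial genes are highest in those 2 samples.

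Mitochondrially encoded genes had the most negative median of all lists. These genes encode subunits of the respiratory chain and the ribosomal RNAs of the organelle. All 14 tested members had an interaction below 0, 11 at an unadjusted p under 0.05, where 6.01% of all genes reached that p. Their median was -2.64, and 0 were called. Their level was 135, 86.1, 96.3, 67.3 and 64.4 CPM in WT, 72.7, 112 and 816 CPM in Tyrobp-KO, 161, 136, 127, 728 and 242 CPM in Q175, and 323, 75.7, 81.8, 176 and 267 CPM in Q175;Tyrobp-KO samples. The same 2 samples, Tyrobp-KO replicate 20 and Q175 replicate 14, stood far above the rest. Without both of them the median was 0.02, a choice made after seeing the data that raises the median by construction. It was -0.03 with the marker score as a term, -1.38 with sex as a term and -0.87 without Tyrobp-KO replicate 20 alone. In each of these settings 0 members were past an unadjusted p of 0.05. Over all genes tested, 140, 96, 59 and 139 were below 0 at that p in the same order, against 562 with all samples and no added term. A count of 0 in a short list is near that background.

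**Figure D5:**
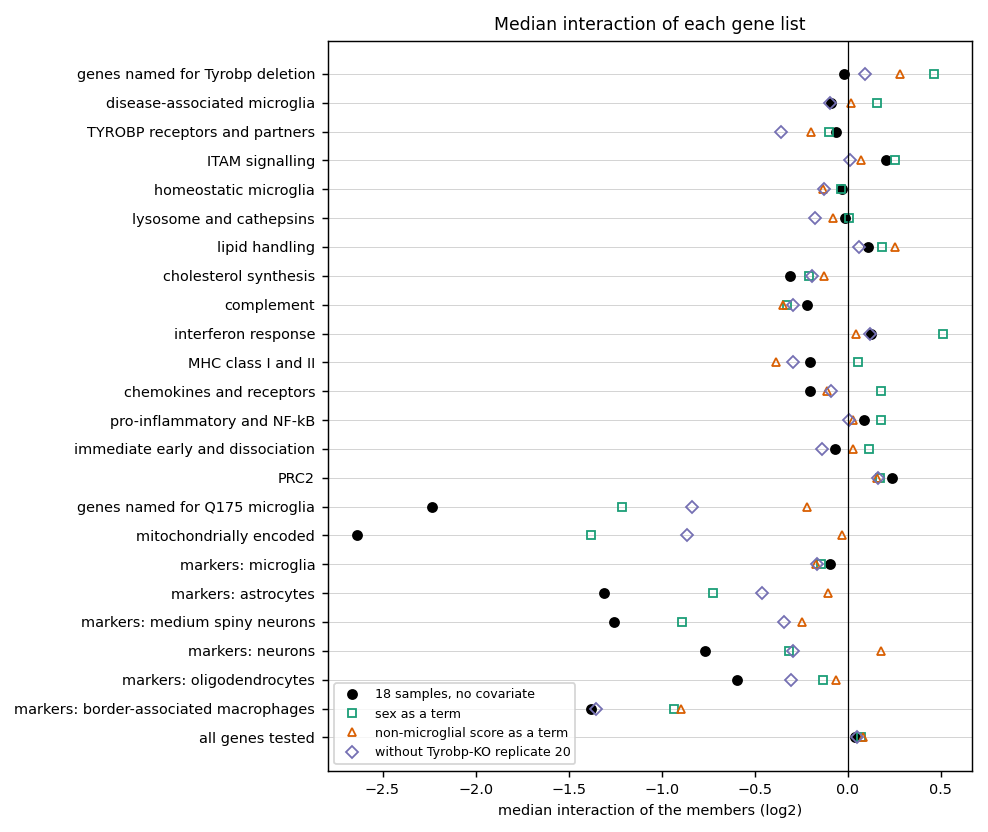
Median interaction in log2 (x) of each gene list (y) with all samples and under 3 other settings. The medians of the mitochondrial genes, the genes named for Q175 microglia and the astrocyte markers move from -2.64, -2.24 and -1.31 towards 0, and those of the TYROBP receptor, homeostatic and lysosome lists lie between -0.36 and 0.01. The marker score among these settings is itself built partly from the astrocyte markers.

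Genes of the TYROBP pathway and of homeostatic microglia had medians near 0, with few tight intervals for the pathway. Of 14 tested receptors and partners of TYROBP, 0 had an unadjusted p under 0.05, 7 lay above and 7 below 0, the median was -0.06, or -0.36 without Tyrobp-KO replicate 20, and 4 had the whole 95% interval within 2-fold. Csf1r, the receptor for colony-stimulating factor 1, had 0.28 (95% interval -0.92 to 1.48), and Siglech, a sialic acid-binding lectin that pairs with TYROBP, 0.35 (95% interval -0.17 to 0.88). Of 24 genes of ITAM signalling 17 lay above 0 with a median of 0.20, or 0.01 without Tyrobp-KO replicate 20, and 7 had the whole interval within 2-fold, where 37.3% of all genes did. The only one past an unadjusted p of 0.05 was Btk, a tyrosine kinase gene on chromosome X, with 0.52, or 0.35 with sex as a term. Inpp5d, the lipid phosphatase SHIP1, had 0.67 and Lyn, a Src-family kinase, 0.05, both with a 95% interval that holds 0. Of 29 homeostatic genes, 0 had an unadjusted p under 0.05 and 17 had the whole 95% interval within 2-fold, with a median of -0.03. Of 30 lysosome and cathepsin genes, 0 had an unadjusted p under 0.05 and 19 had the whole interval within 2-fold, with a median of -0.02. Of all genes above 100 CPM, 57.8% had such an interval. Cst3, the cysteine protease inhibitor cystatin C, had -0.10.

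The disease-associated list as a whole stood lower without Tyrobp in both backgrounds. Of its 38 genes 11 were called lower for the average Tyrobp effect, and the median interaction was -0.09, with 1 gene above 0 (Lpl) and 1 below 0 (Fabp5) at an unadjusted p under 0.05. The level of the list was 75.9, 75.4, 56.9, 79.9 and 71.7 CPM in WT and 43.3, 36.9 and 44.3 CPM in Tyrobp-KO samples. It was 54.6, 47.8, 38.5, 83.0 and 101 CPM in Q175 and 35.1, 35.9, 33.3, 35.9 and 36.4 CPM in Q175;Tyrobp-KO samples. In both backgrounds the samples without Tyrobp lay below those with it. The Q175 samples differed among themselves by more than any other group, with an SD of 26.3 CPM, and the Q175;Tyrobp-KO samples by the least, with an SD of 1.23 CPM (n = 5 in each). That difference in spread was not tested. The list of 15 genes named for Tyrobp deletion was again chosen on these samples. The study's text names only some of its members, such as Clec7a, Lyz2 and Spp1. Of the 15 genes, 14 were called lower for the average effect, and Tmc3 was the exception. Their median change was -2.57 in WT and -2.20 in Q175 mice, with a median interaction of -0.02, or 0.46 with sex as a term.

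Immune effector genes showed few interactions. The 16 complement genes had a median of -0.22 and 0 at an unadjusted p under 0.05, and C1qb and C1qc, which encode chains of the C1q recognition molecule, both had -0.49 with 95% intervals that hold 0. Of 18 chemokine and receptor genes 1 was above 0 at that p, Ccr1 with 1.099, of 36 interferon genes 1, the transcription factor gene Stat2 with 0.50, and of 27 pro-inflammatory genes 0. Their medians were -0.20, 0.12 and 0.09. They were 0.18, 0.51 and 0.18 with sex as a term, and the interferon median ran from -0.15 to 0.47 with 1 sample left out, without Tyrobp-KO replicates 19 and 15. In females and in males alone the chemokine medians were -1.08 and 0.98 and the interferon medians -0.47 and 2.08. Of 21 MHC genes, Ciita, the class II transactivator, had 2.27 at a mean below 1 CPM in every group, and H2-Eb1, a class II chain, -1.54. Since 6.01% of all genes reached this p, counts of 0 or 1 in these lists are near the background or below it. Of 12 genes of the PRC2 chromatin complex 1 was below 0 at that p, Epop with -1.54, and the median was 0.24.

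Cholesterol synthesis genes leaned below 0. Of 25 genes 19 lay below 0 and 6 had an unadjusted p under 0.05, among them Hmgcs1, Idi1, Msmo1, Sqle and Stard4, and the median was -0.31. Of all 18613 genes 8699 lay below 0, and 6.01% reached that p in either direction. Hmgcs1, the synthase that makes HMG-CoA, stood at 47.3, 46.3, 57.7, 33.9 and 39.0 CPM in WT, 56.4, 61.1 and 204 CPM in Tyrobp-KO, 62.5, 67.4, 42.2, 140.1 and 60.2 CPM in Q175, and 75.1, 42.8, 38.5, 62.4 and 66.9 CPM in Q175;Tyrobp-KO samples. Its 2 high values were again Tyrobp-KO replicate 20 and Q175 replicate 14, and its interaction was -1.64 (unadjusted p = 0.00583). With sex as a term 0 of the 25 genes were below 0 at an unadjusted p under 0.05, and the same held without Tyrobp-KO replicate 20 and with the marker score as a term. Over all genes tested, 59, 139 and 96 were below 0 at that p in the same order, against 562 with all samples and no added term. A count of 0 in a short list is near that background. Of 23 lipid handling genes, Lpl and Acaca (0.56), which encodes the enzyme that makes malonyl-CoA, were above 0 and Fabp5, a fatty acid carrier, below 0 at -1.58, and the median was 0.11. Acaca had 0.78 and Fabp5 -0.80 with sex as a term.

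Markers of border-associated macrophages, the CD11b-positive cells of meninges and vessels, kept a negative median in the same settings. Of 8 tested genes, 4 were below 0 at an unadjusted p under 0.05, where 562 of all 18613 genes were. The 4 were Mrc1 (-1.18), Cd163 (-3.10), Cbr2 (-2.56) and Ms4a7 (-1.80), and the median of the 8 was -1.38. The median was -1.36 without Tyrobp-KO replicate 20, -1.22 without both samples and -0.94 with sex as a term, with 3, 2 and 2 genes past that p. It was -1.99 in females alone and -0.17 in males alone. Mrc1, the mannose receptor, averaged 7.13, 10.4, 10.7 and 6.85 CPM in WT, Tyrobp-KO, Q175 and Q175;Tyrobp-KO samples, and the other 3 averaged below 2 CPM in every group. None was called.

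Genes of the sex chromosomes followed the sexes of the groups. The Y-linked genes Ddx3y, Uty, Eif2s3y and Kdm5d had interactions of 2.92, 3.13, 3.12 and 2.91, and Xist, expressed from the inactive X, had -3.22. With sex as a term the 4 Y-linked genes stood at -0.16, 0.19, 0.21 and -0.41. Of 581 tested genes on chromosome X, 53 had an unadjusted p under 0.05, where 6.01% of all genes did, and the median interaction was -0.14. With sex as a term 289 genes had an unadjusted p under 0.05 over the whole genome in place of 1118, 230 above and 59 below 0, and 0 were called by edgeR.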

How the data were processed

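Microglial RNA of 18 striatal samples was sequenced, and the study's methods name SMART-Seq Ultra Low Input for it. The methods also name a non-directional library kit, in a paragraph that covers whole striatum too. The deposited table holds whole-number read counts per gene, which the authors made by aligning with STAR and counting with featureCounts. The labels name GRCh38 and the study's methods GRCm38, and all 55536 gene IDs are in GENCODE M21, a GRCm38 annotation. The labels give 2 striata and the methods 1 striatum per sample. In the table, 2 other columns match no label and were not used. Every gene that reached 1 CPM in any sample was fitted with edgeR 4.0.16 in R 4.3.3 (TMM scaling with factors 0.788 to 1.13, quasi-likelihood F test, 4 groups, no covariate, 14 residual degrees of freedom, Benjamini-Hochberg FDR 0.1). Log2 changes use edgeR's prior count, and CPM are TMM-normalized. Standard errors and 95% intervals were worked out from the weights and the quasi-likelihood dispersion of the edgeR fit. They are separate from the F test that gave the p-values. List levels are geometric means of CPM plus 1. DESeq2 1.42.0 and limma 3.58.1 served as alternatives. The contrast, the lists and the rules were chosen with earlier results of these data known. Named genes were the 10 smallest unadjusted interaction p values on each side (autosomal or mitochondrial, mean of at least 1 CPM). Added to these were up to 15 genes called for the average Tyrobp effect, and Tyrobp and Htt. Members of the lists named for Tyrobp deletion and for Q175 microglia and of the sex-linked list were added too. From each other list came members at an unadjusted p under 0.05 and the 2 most abundant. The scripts were tested on simulated counts. No comparison columns of the authors were used. Some named genes are not reported here.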

Additional observations from a re-analysis of the deposited data

Results flagged for a closer look

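In groups of 5 samples, a sample was singled out when its gap to the nearest other sample took up most of the group's range. Over 123 sets of samples, 20 such cases arose, and chance gives about 1 in 20. No explanation was weighed.

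Q175 replicate 14 was the highest of its group for the astrocyte marker level (111.5 CPM, next 55.28), the neuron marker level (48.14 CPM), Slc1a2 (4516.0 CPM, next 1614.0), Gstm5 (136.9 CPM), Hmgcs1 (140.1 CPM) and mt-Co1 (46740.0 CPM, next 12010.0). Oligodendrocyte markers were highest in Q175 replicate 17 (334.1 CPM) and endothelial and mural markers in Q175 replicate 4 (5.058 CPM).

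In Q175;Tyrobp-KO samples, replicate 11 was highest for ependymal and choroid plexus markers (9.223 CPM, next 3.359), for T, B and NK cell markers (4.818 CPM) and for Gm6611 (13.4 CPM). Replicate 5 was highest for Spp1 (3.886 CPM, next 0.8214) and oligodendrocyte precursor markers (29.57 CPM), replicate 13 for monocyte and neutrophil markers (5.115 CPM) and replicate 16 for Ch25h (0.8497 CPM).

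In WT samples, replicate 6 was highest for medium spiny neuron markers (40.54 CPM, next 16.56) and for monocyte and neutrophil markers (8.822 CPM) and lowest for Btk (64.22 CPM). Replicate 1 was highest for Ccl3 (37.91 CPM) and replicate 8 for Gabrg1 (6.88 CPM). The Tyrobp-KO group of 3 was too small for this rule.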

How the results depend on the processing

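The interaction had 0 genes called in every edgeR and limma-voom setting run, including each sample left out in turn (0 to 0), and 2 with DESeq2 (Tmc3 and Ccbe1) or with DESeq2 and sex as a term (2, Tmc3 and Gm28182). The average Tyrobp effect had 37 genes called, 22 to 592 with 1 sample left out (22 without WT replicate 1 or Tyrobp-KO replicate 19, 24 without Q175;Tyrobp-KO replicate 12, 83 without Q175 replicate 17, 592 without Tyrobp-KO replicate 20), 204 with DESeq2, 31 to 54 under the other scalings, filters and terms tried, 1 in females alone and 2 in males alone. Chosen after seeing the data were DESeq2 with sex as a term (201), limma-voom with sample quality weights (3199) and the fit without Tyrobp-KO replicate 20 and Q175 replicate 14 (209). The average Q175 effect had 0 genes called, 967 at an unadjusted p under 0.05, 0 with any 1 sample left out, 1 with DESeq2, 1 with DESeq2 and sex and 1352 with limma-voom, the last 2 chosen after seeing the data. The limma-voom weights ran from 0.332 for Tyrobp-KO replicate 20 to 3.16 for WT replicate 2. The cause of these differences between tools was not tested. Of 62 genes followed through the settings, 33 kept the sign of the interaction in all of them. Of the 30 with an unadjusted p of 0.05 or more, 25 turned in at least 1 setting, and of the 32 under 0.05, 4 did. These were Mir6236 (0.0929) and Gstm5 (0.2028) in males alone, Trpc6 without both samples (0.0056), and Gng13 in males alone (0.6474), with the marker score (0.1121), with score and sex (0.1026) and without both samples (0.1587). No paired analysis was possible because each replicate number is used in a single group only. In mice without Q175 the deletion was measured in 3 samples only.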
